A study of Mus musculus with 4 samples.

Results

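Metallothioneins and zinc transporters are described here by 10 genes, chosen by symbol from the table of read counts: the metallothionein genes Mt1, Mt2 and Mt3, the metal-responsive transcription factor gene Mtf1, the SLC30 transporter genes Slc30a1, Slc30a5 and Slc30a7, and the SLC39 transporter genes Slc39a1, Slc39a6 and Slc39a10. All 10 have a row among the 23473 gene rows, and 9 of them had enough counts to be among the 11024 genes tested. The genes were picked with the response of these libraries already known, so their differences between the groups are given below as a description, with no p-value and nothing read from how many of them passed a threshold. The series holds 4 RNA-seq libraries of cells labelled MIN6, a mouse insulinoma line used as a model of the pancreatic beta cell. Of these, 2 come from cells labelled as wild type controls and 2 from cells that stably overexpress TLX, the orphan nuclear receptor encoded by Nr2e1. All 4 were grown in medium with 25 mM glucose and 15% serum. The sources used here do not name the vector, the number of clones behind the stable line, or whether the 2 libraries of a group come from separate cultures, so p-values measure only the spread between these samples.

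Zinc inside a cell is held in balance by 3 kinds of protein. Metallothioneins are small cysteine-rich proteins of the cytosol that bind zinc, copper and cadmium; SLC30 (ZnT) transporters move zinc out of the cytosol, and SLC39 (ZIP) transporters move it in. MTF1 is a zinc finger protein that senses a rise in free zinc, binds short promoter motifs called metal response elements, and switches on the metallothionein genes and the exporter gene Slc30a1. In beta cells zinc has a further role, since insulin is stored in granules as zinc crystals and the granule transporter ZnT8, encoded by Slc30a8, supplies that zinc.

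The promoters of the 3 genes that stood lowest with TLX among the 10, Mt1, Mt2 and Slc30a1, are shown because the metal response element links these genes. Each line holds the 250 bases before the gene's start in RefSeq (mouse build GRCm38.p6, plus strand in each case), at chr8:94178839-94179088 for Mt1, chr8:94172368-94172617 for Mt2 and chr1:191906531-191906780 for Slc30a1. Capitals mark the core of the element, searched as TGCACNC and TGCGCNC on both strands, and no 2 matches in these genes share a base.
Mt1: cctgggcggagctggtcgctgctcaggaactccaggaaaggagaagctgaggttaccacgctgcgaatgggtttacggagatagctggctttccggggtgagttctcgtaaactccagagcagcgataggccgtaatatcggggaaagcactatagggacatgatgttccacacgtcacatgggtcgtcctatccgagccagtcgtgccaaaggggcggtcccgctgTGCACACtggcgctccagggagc
Mt2: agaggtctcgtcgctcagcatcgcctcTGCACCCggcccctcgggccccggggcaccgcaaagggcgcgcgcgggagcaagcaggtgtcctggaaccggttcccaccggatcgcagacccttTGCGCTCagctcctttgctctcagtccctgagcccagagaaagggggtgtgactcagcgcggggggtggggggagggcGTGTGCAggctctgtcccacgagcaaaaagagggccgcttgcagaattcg
Slc30a1: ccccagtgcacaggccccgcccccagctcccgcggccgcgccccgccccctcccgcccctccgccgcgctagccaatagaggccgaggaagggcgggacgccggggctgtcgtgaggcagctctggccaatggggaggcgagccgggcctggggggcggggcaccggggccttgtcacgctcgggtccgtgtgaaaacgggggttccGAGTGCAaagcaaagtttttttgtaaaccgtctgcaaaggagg
Further matches lie within the 50 bases after each start, here in stretches of 30 bases at chr8:94179089-94179118, chr8:94172619-94172648 and chr1:191906801-191906830.
Mt1 after the start: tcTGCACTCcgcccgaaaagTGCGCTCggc
Mt2 after the start: gtcGTGCGCAggcccaggggcgtgtgctgg
Slc30a1 after the start: cctccgggccGAGCGCAgtcgccgcggacg
In the full window of 300 bases, 250 before to 50 after the start, Mt1 holds 3 matches, Mt2 4 and Slc30a1 2. Mt3 and Slc30a5 hold 1 each, and the windows of Mtf1, Slc30a7 and Slc39a1 and both windows of Slc39a10 hold 0. Of all 32851 RefSeq promoter windows of that length 25.7% hold at least 1 match, 7.11% at least 2 and 1.97% at least 3. A match is a sequence of letters and not a shown binding site, and its absence says nothing of the factor. The counts for Mt1, Mt2 and Slc30a1 depend on the RefSeq start used, and windows of any other start of these genes were not searched. Slc30a4, a transporter outside the 10 genes that is described further on, holds 3 matches. No window is given here for Slc39a14, which is described with it. Of the 10 genes 9 have an entry among the promoters used here. Slc39a6 has none, so no window of it was searched. On mouse chromosome 8 the order of RefSeq genes is Mt4, Mt3, Mt2, Mt1.

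The libraries held 10865462 to 13066536 counts in all, of which 8136185 to 9788646 fell on gene rows. Levels are given as CPM, counts scaled to a common library size, with the SD over 2 libraries. Nr2e1, the overexpressed gene, had 8 and 10 counts in control and 338 and 281 in TLX, in the direction of the labels. Beta cell markers were nearly absent from all 4 libraries: of 15 markers 11 were at 0 counts throughout, Slc30a8 and Iapp among them, and the summed level was 18.3 to 20.6 CPM in control and 20.8 to 21.7 CPM in TLX. Ins1 stood at 9.34 and 8.66 CPM in control against 11.3 and 8.83 CPM in TLX, Ins2 at 5.39 and 4.03 against 3.70 and 6.31 CPM, Pdx1 at 4.19 and 4.03 against 3.82 and 4.16 CPM, and Mafa at 1.68 and 1.61 against 1.97 and 2.40 CPM. The 4 markers that could be tested gave 0 calls in edgeR (0 at an unadjusted p under 0.05, 0 in DESeq2). These levels stand against the labelled beta cell type in both groups, so the cells are called here by their label only. The 12 fibroblast and mesenchymal markers summed to 6614 to 6974 CPM in control and 7662 to 8038 CPM in TLX, and most of that sum came from Col1a2, Vim and S100a4, which other cells also express. Lum was at 0, and Col3a1, Thy1, Dcn and Acta2 were below 1 CPM in every library. In edgeR 2 of the 7 tested were called higher and 1 lower, 42.9% beside 16.8% of all genes (2 and 0 in DESeq2). Col1a2 (log2 fold change 0.28, edgeR adjusted p = 0.0434) and Sparc (0.87, adjusted p = 2.21e-08) were higher, and Pdgfrb (-0.73, adjusted p = 0.00647) was lower. Col1a1 (mean 240 CPM in control, 218 CPM in TLX), Vim, S100a4 and Pdgfra were not called. The 4 leukocyte markers summed to 120 to 122 CPM in control and 103 to 104 CPM in TLX. Cd68 was called lower, at 63.7 ± 6.4 CPM in control against 44.3 ± 1.5 CPM in TLX (log2 fold change -0.53, edgeR adjusted p = 0.000391). Cd14 (mean 39.6 against 42.5 CPM) and Lyz2 (17.3 against 16.7 CPM) were not called. That is 33.3% of the 3 tested, beside 16.8% of all genes. Ptprc stood at no more than 0.13 CPM in any library. Whether the levels of these other markers have a part in the zinc gene differences was not tested.

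The metallothionein genes Mt1 and Mt2, which encode the widely expressed forms of the protein, were abundant and were lower with TLX. Mt1 was counted 6627 and 7518 times in control and 4249 and 3506 times in TLX, a level of 794 and 757 CPM against 491 and 442 CPM. Both TLX libraries lay well below both controls. The log2 fold change was -0.73 (SE 0.08, 95% interval -0.90 to -0.56), which leaves 60.2% of the control level. Mt2 was counted 5028 and 7276 times in control and 2540 and 2239 times in TLX, a level of 602 and 733 CPM against 294 and 282 CPM. The groups did not overlap here either, although the control libraries differed 1.22-fold from each other, the widest control gap of the 3 genes that were lowest. The log2 fold change of Mt2 was -1.21 (SE 0.09, 95% interval -1.40 to -1.03), or 43.2% of the control level. In cells measured in bulk, fewer cells that carry a transcript and less of it per cell cannot be told apart.

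Mt1 and Mt2 together gave 1443 ± 66 CPM in control and 755 ± 43 CPM in TLX, 0.523 times the control. Per length, as RPKM (CPM per kilobase of the deposited feature length), the level of Mt1 was 1.35 and 1.06 times that of Mt2 in control libraries 1 and 2, and 1.72 and 1.61 times in TLX libraries 1 and 2. The balance of the pair was thus further toward Mt1 in both TLX libraries than in either control, with a control spread (1.21 ± 0.21) that reflects the gap in Mt2 between the controls. By control RPKM Mt1 ranked 39 and Mt2 ranked 53 among the 11024 tested genes. By log2 fold change, counted from the lowest value, Mt2 ranked 76, Slc30a1 143 and Mt1 302. Ranks by log2 fold change only describe the choice, since the genes were picked with this contrast known. No stretch of 36 bases of the Mt1 transcripts in GENCODE M21 occurs in a transcript of another gene, so Mt1 and Mt2 reads of that length can be told apart. For Mt2, 54.6% of such stretches also lie in Gm45774, an antisense model that overlaps it and has no row in the table. Without a stated use of strand, reads of a gene and of its antisense partner cannot be told apart where they overlap.

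Mt3, the brain form of metallothionein, had 0 counts in 3 libraries and 1 count in TLX library 2. In the 3 libraries at 0 the limit that a count of 0 allows (3 counts, counting error only) lay at 0.302 to 0.359 CPM, and Mt3 was the single member not tested. Mt4, the form of stratified epithelia, had 0 counts in every library.

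Mtf1 itself, the zinc sensor, had 46.6 and 42.9 CPM in control against 50.3 and 44.7 CPM in TLX. The groups overlapped, and the log2 fold change was 0.09 (SE 0.10, 95% interval -0.11 to 0.29). Of the Mtf1 stretches of 36 bases, 7.71% occur in 1110065P20Rik, a gene on the opposite strand looked up after its values were seen, which had 24.7 ± 1.9 CPM in control against 23.0 ± 0.04 CPM in TLX.

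**Figure D1:**
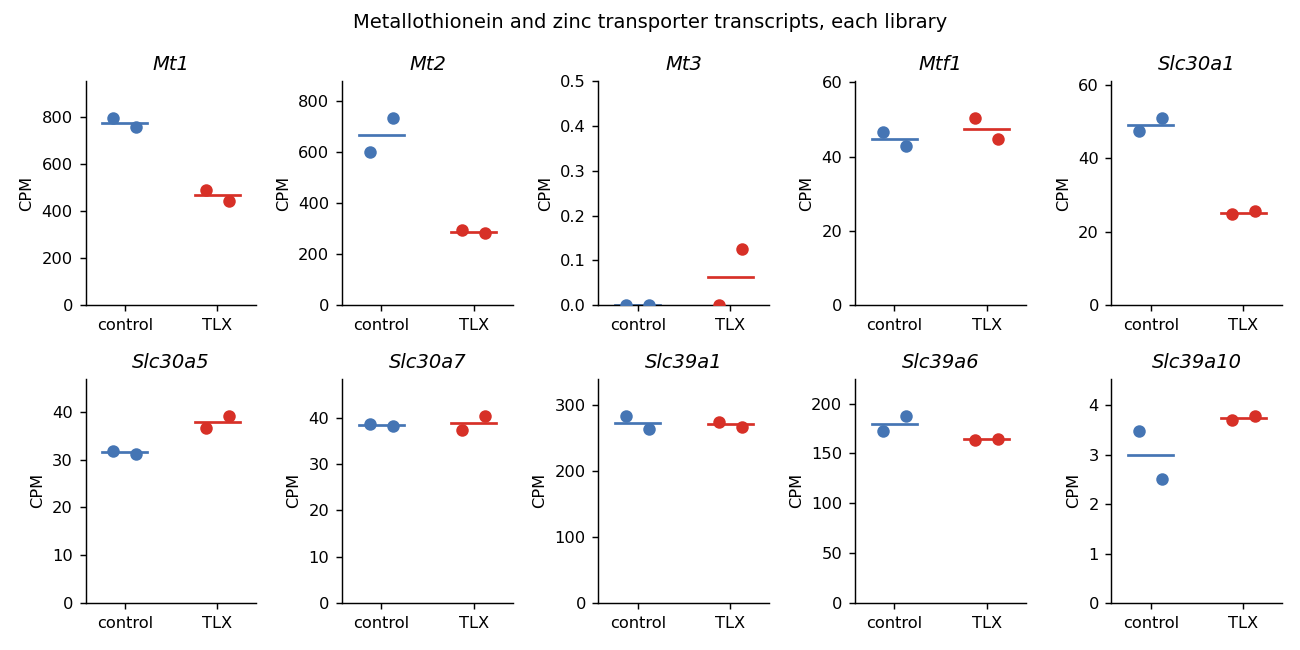
Level of each of the 10 genes in CPM (linear axes that start at 0 and differ between panels) in the 2 control libraries (blue points) and the 2 TLX libraries (red points), with the group mean as a line. Mt1, Mt2 and Slc30a1 show both TLX points below both control points by a wide margin, while Mtf1, Slc30a7 and Slc39a1 overlap; Mt3 rests on 1 count.

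Among the exporters, Slc30a1 (ZnT1), the transporter that carries zinc out across the plasma membrane, was lower with TLX. It was counted 396 and 505 times in control and 214 and 203 times in TLX, a level of 47.4 and 50.9 CPM against 24.8 and 25.6 CPM. The 2 libraries of each group differed 1.07-fold (control) and 1.03-fold (TLX), and the groups did not overlap. The log2 fold change was -0.97 (SE 0.10, 95% interval -1.18 to -0.76), or 51.2% of the control level. Of the Slc30a1 stretches of 36 bases, 8.28% occur in 1700034H15Rik, an antisense model that overlaps it, looked up after its values were seen. That model had 10.5 ± 0.4 CPM in control against 5.49 ± 0.09 CPM in TLX (log2 fold change -0.93, edgeR adjusted p = 0.000843). Without a stated use of strand, only reads from the shared stretches cannot be told apart between the model and Slc30a1.

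The other 2 SLC30 members sit on the secretory pathway and were not lower with TLX by a like amount. Slc30a5 (ZnT5), which loads zinc into the Golgi and early secretory vesicles, stood at 31.9 and 31.2 CPM in control against 36.7 and 39.1 CPM in TLX. Both TLX libraries lay above both controls, by a log2 fold change of 0.26 (SE 0.10, 95% interval 0.05 to 0.47). Slc30a7 (ZnT7), which also serves the Golgi, stood at 38.7 and 38.3 CPM in control against 37.4 and 40.4 CPM in TLX. Those groups overlapped, and the log2 fold change was 0.013 (SE 0.10, 95% interval -0.19 to 0.22). Relative to Slc30a5, the RPKM level of Slc30a1 went from ratios of 0.905 and 0.990 in control to 0.410 and 0.398 in TLX.

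The 3 importers were not lower with TLX to the extent of Slc30a1, and the interval of each includes 0. Slc39a1 (ZIP1), a widely expressed importer of the plasma membrane, stood at 284 and 264 CPM in control against 275 and 268 CPM in TLX, with both TLX values inside the control range. Its log2 fold change was -0.0125 (SE 0.08, 95% interval -0.17 to 0.14). Slc39a6 (ZIP6) and Slc39a10 (ZIP10) encode closely related importers whose proteins can form a complex with each other. Slc39a6 stood at 172 and 187 CPM in control against 164 and 164 CPM in TLX, just below both controls, with a log2 fold change of -0.13 (SE 0.08, 95% interval -0.29 to 0.03). Slc39a10, a gene that MTF1 is reported to repress, was counted only 29 and 25 times in control and 32 and 30 times in TLX, a level of 3.47 and 2.52 CPM against 3.70 and 3.79 CPM. The TLX libraries lay above the controls by less than the gap between the controls, and the interval of the log2 fold change (0.34, SE 0.27) ran from -0.22 to 0.90, so a difference was not detectable at this depth. The value was 0.57 without control replicate 1 and 0.11 without control replicate 2.

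At the threshold used for all genes (edgeR's quasi-likelihood test, adjusted p of 0.05), 16.8% of the genes tested were called, 7.79% higher and 9.04% lower. Mt1, Mt2 and Slc30a1 are among those called lower and the other 6 of the 9 are not called. Since the genes were chosen with this contrast known, that count is a description of the choice and no test of it. Both TLX libraries lay below both controls for 4 of the 9 and above for 2, against 28.6% and 28.5% of all genes. The median log2 fold change of the 9 was -0.0125, against 0.0006 for all genes tested.

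Per length, the tested zinc genes covered a wide range in RPKM. The metallothioneins led at 1431 ± 48 (Mt1) and 1201 ± 166 (Mt2) RPKM in control, with Mt1 above Mt2 in both control libraries. Slc39a7 (147 ± 8 RPKM), which releases zinc from the endoplasmic reticulum, and Slc39a1 (117 ± 6 RPKM) followed, and together they held 63.0% of the summed RPKM of the SLC39 family in control and 63.5% in TLX. Slc39a13 and Slc39a6 came next at 47.9 ± 2.0 and 46.3 ± 2.7 RPKM, which do not differ beyond their spread. Slc39a14 stood at 27.3 ± 1.8 RPKM, and Slc30a4, the most abundant exporter, at 24.3 ± 1.4 RPKM. Slc30a5 (9.92 ± 0.14 RPKM), Slc39a9 (9.81 ± 1.27 RPKM) and Slc30a1 (9.40 ± 0.46 RPKM) came close to each other in control, and the spread of Slc39a9 covers the other 2. In TLX, Slc30a1 at 4.82 ± 0.12 RPKM had left that group and lay nearer to Slc30a7 (4.31 ± 0.24 RPKM). Mtf1 (5.86 ± 0.34 RPKM in control) lay below Slc30a1 and above Slc30a7, and Slc39a10 (0.604 ± 0.136 RPKM) was the lowest of the 19.

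**Figure D2:**
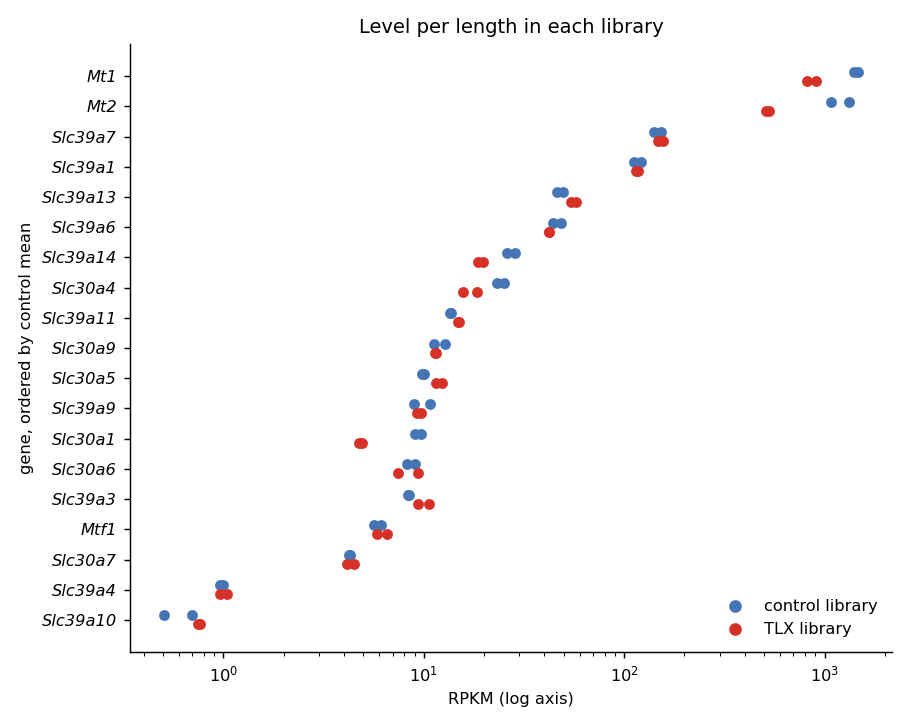
Level per length (RPKM, logarithmic axis) of the 19 tested metallothionein, Mtf1 and zinc transporter genes in each control library (blue) and TLX library (red), ordered by the control mean. Mt1 and Mt2 stand above all the transporters, and for Mt1, Mt2, Slc39a14, Slc30a4 and Slc30a1 both red points lie clearly to the left of both blue ones.

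The remaining zinc transporters complete both families: the other 7 SLC30 and 11 SLC39 genes, with Tmem163 and Mt4, 20 genes in all. Which genes remain depends on the choice of the 10, made with this contrast known. Of these 10 were tested, 0 rose, 2 fell and 8 did not pass (edgeR adjusted p; 4 at an unadjusted p under 0.05, of which 2 were higher and 2 lower; 0 higher and 2 lower in DESeq2, which gave no adjusted p for 1). That is 20% called, beside 16.8% of all genes. Their median log2 fold change was -0.007.

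Slc30a4 (ZnT4), which moves zinc into vesicles of the endosomal pathway, fell from 128 and 138 CPM in control to 85.9 and 101 CPM in TLX. The groups did not overlap, and the log2 fold change was -0.52 (SE 0.09, edgeR adjusted p = 0.000193; 1.3e-09 to 0.0299 over the alternatives). Here and below, ranges over the alternatives leave out the replicate block. Slc30a4 took 35.4% of the summed RPKM of the SLC30 family in control and 29.3% in TLX. Slc39a14 (ZIP14), an importer of zinc, iron and manganese that inflammatory signals raise in the liver, fell from 136 and 149 CPM to 97.6 and 104 CPM (log2 fold change -0.50, SE 0.08, edgeR adjusted p = 0.000126; 1.08e-09 to 0.0104 over the alternatives). Its groups did not overlap either.

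The other 8 tested transporters did not pass. Slc39a13 (ZIP13), a Golgi and vesicle importer, had a log2 fold change of 0.22 (SE 0.08, edgeR adjusted p = 0.0643), and passed without control replicate 2 (adjusted p = 0.0194; 0.0194 to 0.471 over the alternatives). Slc39a3 had 0.26 (SE 0.11, edgeR adjusted p = 0.105), with both TLX libraries above both controls, as they were for Slc39a13 and for Slc39a11 (0.13, SE 0.10). Slc39a7 (0.04, SE 0.08), Slc39a4 (0.03, SE 0.32), Slc30a6 (-0.04, SE 0.14), Slc39a9 (-0.06, SE 0.10) and Slc30a9 (-0.08, SE 0.10) overlapped between the groups. Slc39a4 rested on 17 to 22 counts a library.

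Transporters with specialised roles were at or near 0 in control and TLX alike. Slc30a8, the beta cell granule transporter, Slc30a10, Slc39a12, Tmem163 and Mt4 had 0 counts in all 4 libraries. Slc30a2, Slc30a3, Slc39a2, Slc39a5 and Slc39a8 had between 0 and 4 counts in any library. Over whole families, the summed SLC30 level was 68.6 ± 2.3 RPKM in control and 58.0 ± 4.1 RPKM in TLX. The summed SLC39 level was 419 ± 6 RPKM in control and 421 ± 11 RPKM in TLX. These sums include the 3 chosen genes of each family, Slc30a1 among them, and were not tested.

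**Figure D3:**
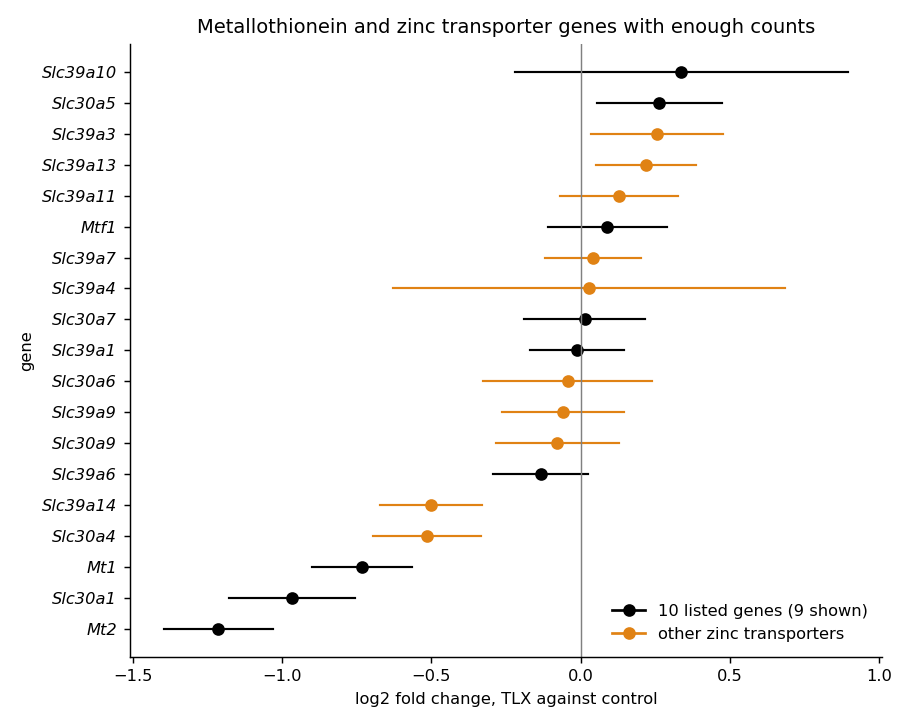
Log2 fold change of TLX against control (points) with its 95% interval (bars, from the fit across all genes) for the 9 tested members (black) and the 10 other tested zinc transporters (orange). Mt2, Slc30a1, Mt1, Slc30a4 and Slc39a14 lie below 0 with intervals that end at or below -0.33, and the widest intervals belong to the low-count genes Slc39a10 and Slc39a4.

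Genes reported to depend on MTF1 or on metal, apart from the members, changed in both directions. Of 7 listed genes 6 could be tested: 2 rose and 2 fell, or 66.7% beside 16.8% of all genes, and the median log2 fold change was 0.17. The list is short and was chosen with earlier results of these data known, so that share describes the choice and tests nothing. Ndrg1, a gene that also responds to hypoxia and other stress, fell from 913 and 894 CPM to 408 and 416 CPM (log2 fold change -1.13, SE 0.08, edgeR adjusted p = 5.77e-10). Gclc, a subunit of glutamate-cysteine ligase in glutathione synthesis, rose from 35.5 and 34.5 CPM to 54.9 and 52.0 CPM (log2 fold change 0.61, SE 0.09, edgeR adjusted p = 6.67e-05). Hmox1, the haem-degrading enzyme, rose from 343 and 340 CPM to 504 and 461 CPM (log2 fold change 0.50, SE 0.08, edgeR adjusted p = 6.9e-05). Csrp1 fell by 0.24 on the log2 scale (edgeR adjusted p = 0.0417), but did not pass without TLX replicate 1 (0.113), without TLX replicate 2 (0.491), in DESeq2 (0.162) or with all feature rows (0.0631; 0.0192 to 0.491 over the alternatives). Gclc and Hmox1 differed in the direction opposite to that of Mt1, Mt2 and Slc30a1. The part of MTF1 in any of these differences was not tested.

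Metallothioneins also bind copper, and some zinc carriers also move iron, so genes of both metals were listed as well. Of 15 copper genes 14 were tested, 0 rose and 2 fell (edgeR; 0 higher and 4 lower at an unadjusted p under 0.05, 0 higher and 2 lower in DESeq2), with a median log2 fold change of -0.09. Steap2, a metal reductase, fell by 0.48 on the log2 scale (SE 0.08, edgeR adjusted p = 0.00012), and Sco2, which helps to insert copper into cytochrome c oxidase, fell by 0.40 (SE 0.08, adjusted p = 0.00171). Of 18 iron genes 14 were tested, 1 rose and 2 fell, with a median of 0.07. The gene that rose is Hmox1. Slc25a37, a mitochondrial iron importer, fell by 0.44 (SE 0.08, edgeR adjusted p = 0.00034). Fbxl5, a sensor of iron, fell by 0.37 (SE 0.09, adjusted p = 0.00789), but did not pass without TLX replicate 1 (0.0997) or in DESeq2 (0.0783; 0.000264 to 0.0997 over the alternatives). The shares called, 14.3% of copper and 21.4% of iron genes, lie beside 16.8% of all genes. Both lists were chosen with earlier results of these data known.

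Glucocorticoids also induce metallothionein genes, and a short list of glucocorticoid response genes changed in both directions. Of 8 listed genes 7 could be tested: 1 rose and 3 fell, or 57.1% beside 16.8% of all genes, and the median log2 fold change was -0.23. This list too was chosen with earlier results of these data known, so its share is a description and no test. Dusp1, a phosphatase that is also an immediate early gene, fell from 81.1 and 72.1 CPM to 45.5 and 48.7 CPM, a log2 fold change of -0.70 (SE 0.09, edgeR adjusted p = 9.72e-06), and Tsc22d3 (GILZ) one of -0.57 (SE 0.09, adjusted p = 0.000148). Klf9 had -0.50 (SE 0.11, adjusted p = 0.00262; 0.0693 without TLX replicate 1, and 2.08e-08 to 0.0693 over the alternatives). Fkbp5, a cochaperone of the glucocorticoid receptor, rose by a log2 fold change of 0.40 (SE 0.09, adjusted p = 0.00364; 0.169 without TLX replicate 1, and 0.000464 to 0.169 over the alternatives). The receptor gene Nr3c1, named after its values were seen, had 80.1 and 95.2 CPM in control against 75.9 and 88.2 CPM in TLX, which overlap. The part of these genes in the levels of Mt1 and Mt2 was not tested.

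**Figure D4:**
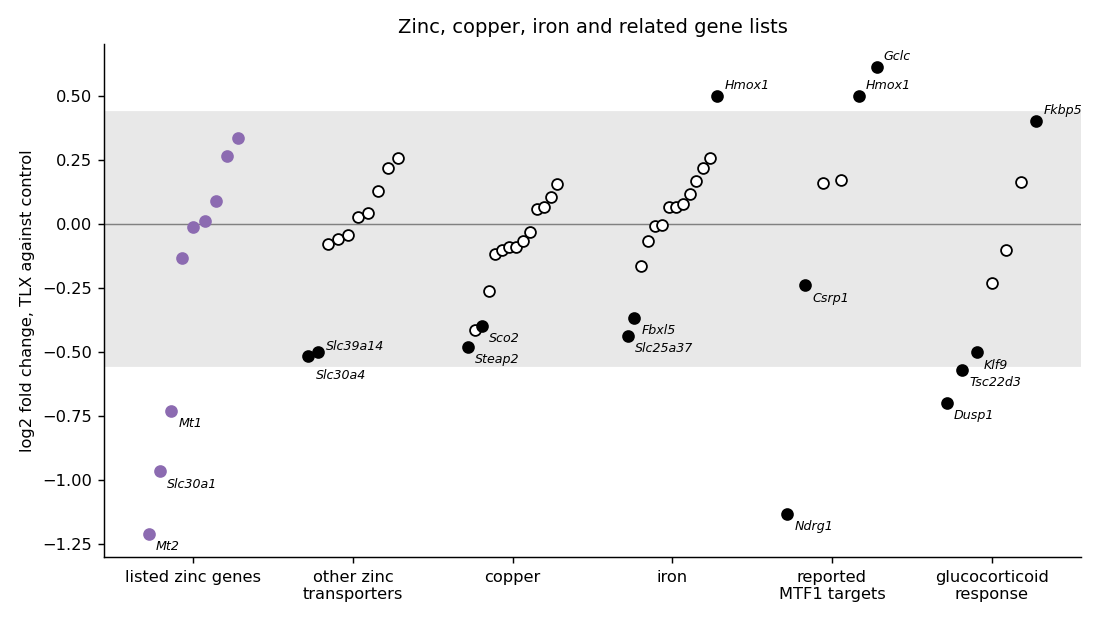
Log2 fold change of TLX against control for every tested gene of the zinc, copper, iron, reported MTF1 target and glucocorticoid lists (Hmox1 is in 2 lists); violet points are the 9 tested members, shown with no test, filled black points passed an edgeR adjusted p of 0.05 and open points did not. The grey band spans the 5th to the 95th percentile of all tested genes (-0.56 to 0.44), and Mt2, Slc30a1, Mt1, Ndrg1, Dusp1 and Tsc22d3 lie below it while Gclc and Hmox1 lie above.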

How the data were processed

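Total RNA of 4 MIN6 libraries was sequenced. The mouse build mm9 and TopHat2 2.0.13 were used, per the submitters' processing notes. The sources used here do not give the counting program, the annotation, the use of strand or the treatment of reads with several matches. The authors deposited raw read counts per feature with a feature length, per the file headers. Rows of FANTOM3 clones (33353 of 56826) were not used. Gene rows passing filterByExpr at a minimum count of 10 were compared between TLX and control by the quasi-likelihood F-test of edgeR 4.0.16 (R 4.3.3) on TMM library sizes, with Benjamini-Hochberg adjustment over 11024 genes. CPM uses the same sizes, and RPKM divides it by the deposited length. SE is the size of the log2 fold change divided by the square root of F, and intervals use the moderated degrees of freedom. The test was tried on simulated data. DESeq2 1.42.0, limma-voom (limma 3.58.1), other filters and scaling, a replicate block and leaving out each library were alternatives. Ranges over the alternatives leave out the replicate block. Fits without Rn45s and Lars2, fits on all feature rows and the alternatives for the call counts of the glucocorticoid list were added after the data were seen. Libraries of a group differed by more than sampling noise (median chi-square per gene 1.13 and 0.923, against 0.455), and by less than libraries of different groups (2.11). The members and lists were chosen with earlier results of these data known. Genes were named by rule: all members and other zinc transporters, Nr2e1, 6 beta cell markers, and in each further list up to 4 called genes of smallest p; others are marker or background values. Promoters and gene order come from RefSeq GRCm38.p6, whose build differs from mm9, and transcripts from GENCODE M21.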

Additional observations from a re-analysis of the deposited data

How the results depend on the processing

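Mt1, Mt2 and Slc30a1 stayed lower under each of the 11 alternatives without the block, from -0.81 to -0.66, -1.35 to -1.06 and -1.02 to -0.92 on the log2 scale, with the extremes from leaving out 1 library. Slc30a4 and Slc39a14 passed in each of them. Genes called higher over all genes numbered 859, and 355 in DESeq2; genes called lower numbered 997, and 484 in DESeq2. Leaving out 1 library gave 388 to 993 higher and 585 to 1060 lower. The lowest counts came without a TLX library: 454 and 388 higher and 585 and 636 lower without TLX replicate 1 and 2. For the other lists it gave 0 to 1 zinc transporter and 0 to 1 copper gene higher, 1 to 2 iron genes higher and 1 to 2 lower, 1 to 2 reported MTF1 targets lower and 0 to 1 glucocorticoid response genes higher. Iron genes higher were 2 without a filter and 2 in DESeq2, and iron genes lower 1 in DESeq2; reported MTF1 targets lower were 1 in DESeq2 and 1 with all feature rows. The cause was not tested. Titles give both groups numbers 1 and 2. Deviations of same-numbered libraries correlated at 0.122 over genes, and nothing in the labels says that a number marks a shared culture. With the replicate block 1495 genes were higher and 1487 lower, against 859 and 997. Higher with it were 2 zinc transporters outside the 10 genes (Slc39a3 and Slc39a13), 1 copper and 3 iron genes. Among the 10, the block also puts Slc30a5 (0.27 on the log2 scale) past the threshold, which the main fit does not. No result is read from that, since the 10 genes were chosen with this contrast known. Low counts limit Slc39a10 and Slc39a4, and Mt3 cannot be compared.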
